A study of Mus musculus with 18 samples.

Results

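9 cytokine and cytokine receptor transcripts were followed in B16F10 tumors: Il6, Il10, Il12a, Il12b, Il23a, Il27, Ebi3 and Il15, and Il15ra, which encodes the receptor chain that carries IL-15. They were taken by name from a fixed list, as 9 of the 50600 genes in the table of counts. B16F10 is a mouse melanoma cell line that was grown under the skin of C57BL/6 mice, and RNA was extracted from whole tumors 24 h after the last intratumoral (IT) injection. The 5 groups of a single dose, each of 2 tumors, received PBS, extracellular vesicles without cargo (unloaded EVs), 0.1 µg of exoCDN2, or free CDN2 at 20 µg or at 100 µg. The 4 groups of 2 doses, which were 3 days apart, received PBS, exoCDN2 or 20 µg of CDN2, or CDN2 with no amount in its label, again in 2 tumors each. Of these, only the titles of the 20 µg CDN2 tumors hold a mark for 2 doses. The 0.1 µg of exoCDN2 is the amount given by the study and is not in the titles. CDN2, called CL656 in the sample labels, is a synthetic cyclic dinucleotide that activates STING. STING links the sensing of DNA in the cytosol to interferon and inflammatory gene expression. ExoCDN2 consists of EVs that carry CDN2. All mice carried the same cell line, and the labels name no genetic change. No group received 2 doses of unloaded EVs, and exoCDN2 was compared only with free CDN2 at 20 µg, a larger amount.

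Cytokines of the IL-12 family are made of an alpha and a beta chain. IL-12 pairs p35 (Il12a) with p40 (Il12b), IL-23 pairs p19 (Il23a) with p40, IL-27 pairs p28 (Il27) with EBI3, and IL-35 pairs p35 with EBI3, so each of these heterodimers forms only where both of its chains are made. IL-6 is an inflammatory cytokine that signals through gp130 and STAT3, IL-10 is a regulatory cytokine that restrains myeloid cells, and IL-15 is held on the cell surface by IL-15Rα and presented to NK cells and CD8+ T cells. Myeloid cells are a main source of most of these cytokines in tumors.

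The expected counts of a tumor summed to 21608895 at the least and 65983630 at the most. Levels are given as CPM, in which each count is divided by the size of its library after TMM scaling, and a value of 3 counts or fewer is called the floor. A gene was called changed when the adjusted p of edgeR's quasi-likelihood test, corrected by Benjamini-Hochberg over all genes tested, was under 0.05 and the ratio was over 2. With 2 tumors per group, no exact permutation test on 1 gene can reach a p below 0.333, so the fit across all genes was used, and its p-values measure the spread between tumors only. Markers of melanoma cells were the most abundant of the marker lists in every tumor. They summed to between 19900 and 25100 CPM in 14 tumors, to 15100 and 16200 CPM after 2 doses of exoCDN2, and to 7400 and 12900 CPM after 2 doses of CDN2 (20 µg). The first tumor given 2 doses of CDN2 (20 µg) stood apart. It had the fewest counts (21608895), the least melanoma marker RNA (7400 CPM) and the most neutrophil (870 CPM) and skeletal muscle (3580 CPM) marker RNA, and 27.4% of genes differed more than 2-fold between it and its replicate. Its replicate also held 1830 CPM of muscle marker RNA, against at most 491 CPM in the other 16 tumors, and 4 of 5 muscle markers were called higher with 2 doses of CDN2 (20 µg) than with PBS, beside 30.6% of all genes called in either direction. Since RNA came from whole tumors, more cells of a type and more RNA per cell cannot be told apart in any of the values.

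Against PBS of the same number of doses, unloaded EVs changed 0 of the 8 members tested (0 at an unadjusted p under 0.05, and 0 with DESeq2), where 0% of the 16927 genes tested were called. The log2 differences of the members with unloaded EVs ranged from -1 (Ebi3) to 1.78 (Il6). After 1 dose, exoCDN2 raised 4 of 8 members (Il6, Il27, Il15 and Il15ra), beside 2.62% of all genes called. CDN2 (20 µg) raised the same 4 and Il10, 5 of 8 in all, beside 3.14% of all genes, and CDN2 (100 µg) raised 3 (Il6, Il27 and Il15ra), beside 2.44%. After 2 doses, exoCDN2 raised 4 of 8 (Il10, Ebi3, Il15 and Il15ra), beside 11.3% of all genes. CDN2 (20 µg) raised 6 (Il6, Il10, Il27, Ebi3, Il15 and Il15ra), beside 30.6%. CDN2 of no labelled amount changed 0 of 8 (0 at an unadjusted p under 0.05, and 0 with DESeq2), beside 0.959% of the 17110 genes tested with those tumors included. No member was lower than PBS past both limits in any of these comparisons. The median log2 fold change of the 8 members was 2.26, 2.11 and 1.92 after 1 dose of exoCDN2, CDN2 (20 µg) and CDN2 (100 µg), and 2.23 and 3.96 after 2 doses of exoCDN2 and CDN2 (20 µg), while the median of all genes lay between -0.02 and 0.01. The comparisons with 1 dose share the same 2 PBS tumors, as do those with 2 doses, so they are not independent of each other. Without either one of the PBS tumors of 1 dose, 0 members were called with exoCDN2, CDN2 (20 µg) or CDN2 (100 µg) at 1 dose, although for Il6 with exoCDN2 the log2 fold change was then 6.92 and 7.32. Without the first exoCDN2 tumor of 1 dose 2 members were called (Il6 and Il27), and the same 2 were called without the second CDN2 (20 µg) tumor of 1 dose. At 2 doses of exoCDN2, Il15ra was the only member called without either one of the PBS tumors or without the first exoCDN2 tumor.

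**Figure D1:**
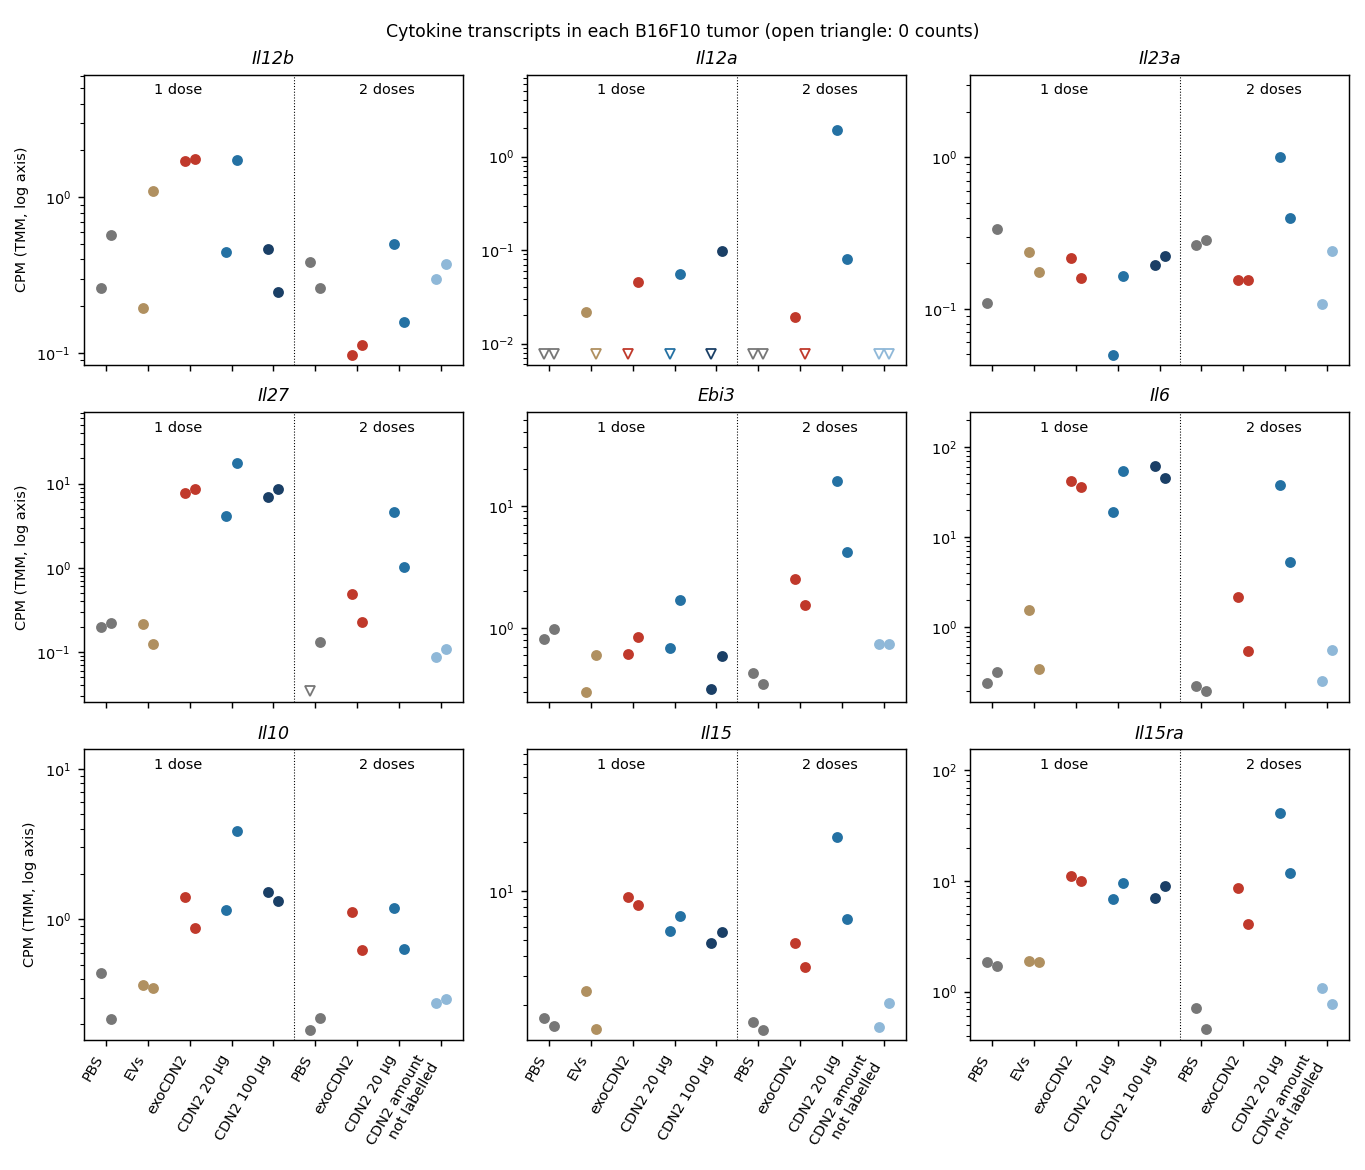
Level of each of the 9 transcripts in each of the 18 tumors, as CPM on a log axis. Each point is 1 tumor, open triangles are tumors with 0 counts, and the dotted line separates 1 dose from 2 doses. Il6 and Il27 are high in all 6 tumors given 1 dose of exoCDN2 or CDN2, while Ebi3 is highest in 3 of the 4 tumors given 2 doses of exoCDN2 or CDN2 (20 µg).

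Il6 had the largest rise against PBS of the members after 1 dose of exoCDN2 or CDN2 and after 2 doses of CDN2 (20 µg). The ranking at 2 doses did not hold with every tumor left out in turn. Il27 then reached a log2 fold change of up to 9.89, and Il6 up to 7.43. For Il6, the 2 PBS tumors of 1 dose held 0.241 and 0.317 CPM and the 2 PBS tumors of 2 doses 0.224 and 0.197 CPM. After 1 dose it stood at 42.1 and 35.6 CPM with exoCDN2, at 19.0 and 53.9 CPM with CDN2 (20 µg), and at 61.2 and 44.9 CPM with CDN2 (100 µg). All 6 of these tumors lay above every tumor given PBS or EVs, and the range of the CDN2 (20 µg) tumors overlapped that of both other treated groups. Against PBS the log2 fold change was 7.10 ± 1.12 (SE, a 137-fold rise, adjusted p = 0.0038) for exoCDN2. It was 7.01 ± 1.12 (adjusted p = 0.0041) for CDN2 (20 µg), or 6.07 without the second CDN2 tumor, and 7.55 ± 1.13 (adjusted p = 0.0039) for CDN2 (100 µg). Unloaded EVs gave 1.56 and 0.350 CPM, a log2 difference of 1.78 ± 1.15 with an adjusted p of 1, and exoCDN2 was higher than unloaded EVs by 5.32 ± 0.99 (log2, adjusted p = 0.01).

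After 2 doses, Il6 was no longer high in every treated tumor. It stood at 2.20 and 0.550 CPM with exoCDN2, and at 38.0 and 5.28 CPM with CDN2 (20 µg), so that the 2 groups did not overlap. Il6 rose with CDN2 (20 µg) by 6.65 ± 1.14 on the log2 scale (adjusted p = 0.00071), and by 4.62 without the first CDN2 tumor. With exoCDN2 the difference from PBS was 2.65 ± 1.16 (adjusted p = 0.14 with edgeR and 0.049 with DESeq2), and with edgeR it was 1.37 without the first exoCDN2 tumor and 3.36 without the second. The exoCDN2 tumors of 2 doses were lower in Il6 than those of 1 dose, by a log2 change of -4.85 ± 0.95 (adjusted p = 0.0082). For CDN2 (20 µg) this change was -0.76 ± 0.80 (adjusted p = 0.47). It was -2.80 without the first CDN2 tumor of 2 doses and 0.14 without the second of 1 dose. Taken relative to PBS, which held like levels at both times, the exoCDN2 change was -4.45 ± 1.75 and missed the limit (adjusted p = 0.15 with edgeR and 0.024 with DESeq2). Tumors given CDN2 of no labelled amount stood at 0.257 and 0.559 CPM, within the range of the PBS and EV tumors.

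Il6 lies on the plus strand at chr5:30013114-30019981 (GRCm38). Its promoter is shown because Il6 had the largest change at 1 dose, and it runs from 250 bases before to 50 bases after the RefSeq start at chr5:30012864-30013163 (GRCm38.p6, plus strand). The capitals mark a match to the NF-κB motif, spelled as GGG, any 2 bases and TTTCC and searched on both strands, from base -44 to base -35 relative to the start:
Il6 promoter: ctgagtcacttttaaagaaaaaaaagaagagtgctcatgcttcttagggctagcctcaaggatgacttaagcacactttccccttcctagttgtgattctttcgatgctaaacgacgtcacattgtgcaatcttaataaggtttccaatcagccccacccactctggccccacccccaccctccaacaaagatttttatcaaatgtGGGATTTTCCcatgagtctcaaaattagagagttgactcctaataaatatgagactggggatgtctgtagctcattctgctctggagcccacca
The same letters were found in 1.63% of 32851 RefSeq promoters of this length. No IRF element (AANNGAAA) and no GAS motif (TTCNNNGAA) was found in this window. Promoters of 5 of the 9 members (Il6, Il12a, Il12b, Ebi3 and Il15ra) were in the table used.

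At 1 dose, only 1 of the 2 chains of IL-27 passed the limits against PBS. Il27, which encodes the p28 chain, held 0.197 and 0.218 CPM in PBS tumors of 1 dose and 0.216 and 0.125 CPM in EV tumors. It stood at 7.81 and 8.72 CPM after 1 dose of exoCDN2, at 4.14 and 17.4 CPM after CDN2 (20 µg) and at 6.98 and 8.55 CPM after CDN2 (100 µg). All 6 treated tumors were above all PBS and EV tumors. Against PBS, Il27 rose by 5.30 ± 0.93 on the log2 scale with exoCDN2 (a 39.3-fold rise, adjusted p = 0.0073), by 5.68 ± 0.94 with CDN2 (20 µg) (adjusted p = 0.0048, and 4.3 without the second CDN2 tumor) and by 5.21 ± 0.92 with CDN2 (100 µg) (adjusted p = 0.011). Against unloaded EVs, exoCDN2 raised it by 5.56 ± 0.95 (adjusted p = 0.0063).

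After 2 doses Il27 was lower with exoCDN2 than after 1. The exoCDN2 tumors stood at 0.487 and 0.225 CPM and the CDN2 (20 µg) tumors at 4.65 and 1.03 CPM, and the PBS tumors held 0 and 6 counts (0 and 0.131 CPM), which limits every fold against them. Il27 rose with CDN2 (20 µg) by 5.37 ± 1.08 on the log2 scale (adjusted p = 0.0018), and its difference from PBS with exoCDN2 was 2.40 ± 1.17 (adjusted p = 0.19). With single tumors left out these values ran from 3.95 to 9.89 and from 1.39 to 6.95. From 1 dose to 2 doses the log2 change was -4.56 ± 0.87 with exoCDN2 (adjusted p = 0.0071) and -1.97 ± 0.76 with CDN2 (20 µg) (adjusted p = 0.062 with edgeR and 0.034 with DESeq2). Without the first CDN2 (20 µg) tumor of 2 doses, the latter became -3.39, and without the second CDN2 (20 µg) tumor of 1 dose it became -0.62. Relative to PBS, neither the exoCDN2 change in Il27 (-2.90 ± 1.72, adjusted p = 0.36) nor that of CDN2 (20 µg) (-0.31 ± 1.81, adjusted p = 0.92) passed the limits.

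Ebi3, the beta chain of IL-27 and IL-35, did not pass the limits in any comparison with PBS at 1 dose. It held 0.809 and 0.990 CPM with PBS, 0.614 and 0.851 CPM with exoCDN2, 0.694 and 1.69 CPM with CDN2 (20 µg), and 0.317 and 0.593 CPM with CDN2 (100 µg). The exoCDN2 and CDN2 (20 µg) tumors overlapped the PBS tumors, the CDN2 (100 µg) tumors lay below them, and the log2 differences were -0.30 ± 0.63 (adjusted p = 0.87), 0.40 ± 0.62 (adjusted p = 0.83) and -0.98 ± 0.66 (adjusted p = 0.57). After 2 doses Ebi3 stood at 2.51 and 1.56 CPM with exoCDN2 and at 16 and 4.19 CPM with CDN2 (20 µg), against 0.429 and 0.350 CPM with PBS, and the 3 groups did not overlap. Ebi3 rose by 2.37 ± 0.65 on the log2 scale with exoCDN2 (adjusted p = 0.026) and by 4.68 ± 0.69 with CDN2 (20 µg) (a 25.6-fold rise, adjusted p = 3e-04). With the PBS tumors of both dose numbers pooled these were 1.65 (adjusted p = 0.06) and 3.95. The rise between 1 and 2 doses of CDN2 (20 µg) was 3.08 ± 0.63 (adjusted p = 0.0039), and 4.28 ± 0.90 relative to PBS (adjusted p = 0.0087). For exoCDN2 these were 1.47 ± 0.62 (adjusted p = 0.14) and 2.67 ± 0.90 (adjusted p = 0.096 with edgeR and 0.044 with DESeq2).

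Per kilobase of exon, Il27 was 6.74 to 24.9 times as abundant as Ebi3 in the 6 tumors given 1 dose of exoCDN2 or CDN2. In the 4 tumors given 2 doses of exoCDN2 or CDN2 (20 µg) the same ratio was 0.163 to 0.329. In the other 8 tumors, where Il27 had only 0 to 11 counts, it was 0 to 0.807. The ratio of the chains thus took 2 ranges that did not overlap, with Ebi3 the more abundant in all tumors other than the 6 treated with 1 dose. Over the 18 tumors the Pearson correlation of log2 CPM was 0.244 between Il27 and Ebi3 and 0.971 between Il27 and Il6, as a description of tumors that share groups and libraries. Il27 (chr7:126589010-126594941, minus strand) overlaps Apobr and Ebi3 (chr17:55952640-55957022, plus strand) overlaps the antisense transcript Gm16712, each on the opposite strand. Whether counting used the strand is not given in the sources used here, so reads of each overlapping pair may not be told apart.

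**Figure D2:**
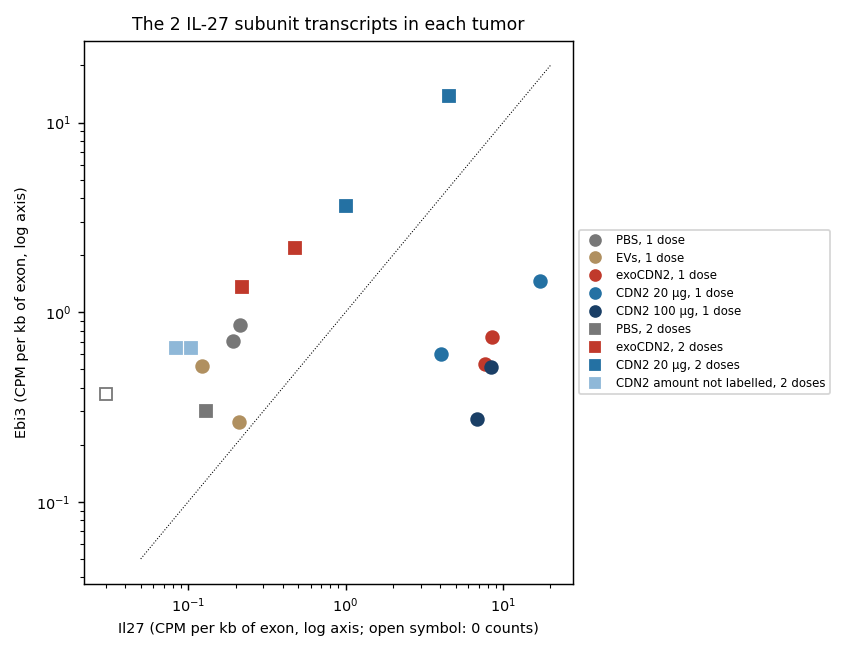
Level of Ebi3 against that of Il27 in each tumor, both as CPM per kilobase of exon on log axes. Circles are tumors of 1 dose, squares tumors of 2 doses, the open square is a tumor with 0 Il27 counts, and the dotted line marks equal levels. The 6 tumors given 1 dose of exoCDN2 or CDN2 lie below the line and the other 12 above it.

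The Ebi3 promoter is shown for comparison with that of Il6, since its transcript was called against PBS at 2 doses and not at 1 (chr17:55952373-55952672, GRCm38.p6, plus strand). It held none of the 3 motifs, so nothing is in capitals:
Ebi3 promoter: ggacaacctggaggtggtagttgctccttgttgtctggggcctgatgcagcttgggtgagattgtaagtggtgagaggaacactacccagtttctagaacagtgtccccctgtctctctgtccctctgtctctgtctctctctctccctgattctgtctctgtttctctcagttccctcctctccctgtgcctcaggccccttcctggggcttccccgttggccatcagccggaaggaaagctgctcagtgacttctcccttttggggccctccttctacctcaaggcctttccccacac
The GAS motif was found in 8.3% and the IRF element in 23.9% of RefSeq promoters of this length.

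The chains of IL-12 and IL-23 were scarce. Il12a (chr3:68690644-68698547), which encodes p35, was at the floor in 16 of 18 tumors and did not pass the filter on low counts. The highest value was 34 counts (1.91 CPM) in the first tumor given 2 doses of CDN2 (20 µg), where its replicate had 3 counts, and 4 counts were found in 1 tumor given CDN2 (100 µg). Il12b (chr11:44400063-44414033), which encodes p40, held 0.262 and 0.574 CPM in PBS tumors of 1 dose, 0.194 and 1.10 CPM in EV tumors and 1.70 and 1.77 CPM after 1 dose of exoCDN2. After 1 dose of CDN2 it stood at 0.446 and 1.74 CPM (20 µg) and at 0.464 and 0.247 CPM (100 µg), overlapping PBS. The difference from PBS with exoCDN2 was 2.04 ± 0.79 on the log2 scale and missed the limit (adjusted p = 0.22). After 2 doses of exoCDN2 Il12b stood at 0.0974 and 0.113 CPM, the lowest levels of the 18 tumors, against 0.388 and 0.263 CPM with PBS (log2 difference -1.60 ± 0.92, adjusted p = 0.27). It fell between 1 and 2 doses of exoCDN2, with a log2 change of -4.00 ± 0.90 (adjusted p = 0.015), which was -3.64 ± 1.21 relative to PBS (adjusted p = 0.093 with edgeR and 0.038 with DESeq2). The direct fall did not pass with any 1 of the 4 tumors left out (adjusted p = 0.061 to 0.14).

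Il23a (chr10:128296139-128298752), which encodes p19, had 2 to 18 counts per tumor. No treatment passed the limits against PBS. Only the tumors given 2 doses of CDN2 (20 µg), at 1.01 and 0.398 CPM, lay above all the other tumors, which ranged from 0.0496 to 0.337 CPM. The log2 difference from PBS was 1.29 ± 0.63 (adjusted p = 0.11), and with the PBS tumors of both dose numbers pooled it was 1.44 and passed (adjusted p = 0.034), while the rise from 1 dose (0.0496 and 0.166 CPM) to 2 doses of CDN2 (20 µg) was 2.64 ± 0.71 (adjusted p = 0.014). This rise was 2.36 ± 0.96 relative to PBS (adjusted p = 0.097), and it was 1.87 (adjusted p = 0.1) without the first of the 2-dose tumors.

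Il10 (chr1:131019845-131024974) was higher in all 10 tumors given exoCDN2, CDN2 (20 µg) or CDN2 (100 µg) than in every other tumor. It held 0.437 and 0.218 CPM in PBS tumors of 1 dose and 0.184 and 0.219 CPM in those of 2 doses. After 1 dose it stood at 1.41 and 0.874 CPM with exoCDN2, at 1.16 and 3.85 CPM with CDN2 (20 µg), and at 1.51 and 1.33 CPM with CDN2 (100 µg). It rose with CDN2 (20 µg) by 2.93 ± 0.60 on the log2 scale (a 7.62-fold rise, adjusted p = 0.016), but by 1.83 without the second CDN2 tumor (adjusted p = 0.2), while the differences of 1.80 ± 0.59 with exoCDN2 (adjusted p = 0.14) and 2.12 ± 0.59 with CDN2 (100 µg) (adjusted p = 0.088) did not pass. With DESeq2, the latter passed (adjusted p = 0.028). After 2 doses Il10 stood at 1.11 and 0.620 CPM with exoCDN2 and at 1.18 and 0.637 CPM with CDN2 (20 µg). It rose by 2.08 ± 0.62 (adjusted p = 0.037) and 2.12 ± 0.65 (adjusted p = 0.017), and the 2 groups overlapped. The rise with exoCDN2 did not pass without either one of the PBS tumors or without the first exoCDN2 tumor (adjusted p = 0.13 to 0.27), and that with CDN2 (20 µg) did not pass without either one of the PBS tumors or without the first CDN2 tumor (adjusted p = 0.06 to 0.1).

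Il15 and Il15ra rose at both times. Il15 (chr8:82331632-82403222) held 1.40 to 1.66 CPM in the 4 PBS tumors and 2.42 and 1.42 CPM in the EV tumors. After 1 dose it stood at 9.22 and 8.26 CPM with exoCDN2, at 5.65 and 7.01 CPM with CDN2 (20 µg) and at 4.81 and 5.61 CPM with CDN2 (100 µg). The exoCDN2 tumors lay above both CDN2 groups, which overlapped PBS in no tumor. It rose by 2.47 ± 0.45 on the log2 scale with exoCDN2 (a 5.55-fold rise, adjusted p = 0.0098) and by 2.01 ± 0.45 with CDN2 (20 µg) (adjusted p = 0.026), and the difference with CDN2 (100 µg) was 1.73 ± 0.45 (adjusted p = 0.066 with edgeR and 0.0062 with DESeq2). Both calls were lost in 3 of 4 fits with 1 tumor left out. After 2 doses Il15 stood at 4.77 and 3.42 CPM with exoCDN2 and at 21.6 and 6.74 CPM with CDN2 (20 µg), and it rose by 1.46 ± 0.45 (adjusted p = 0.042) and 3.25 ± 0.47 (adjusted p = 0.00026). The call with exoCDN2 was lost with each of the 4 tumors left out in turn (adjusted p = 0.052 to 0.26).

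Il15ra (chr2:11705290-11734317) followed Il15 at 1 dose. It held 1.86 and 1.72 CPM with PBS, 1.88 and 1.87 CPM with EVs, 11.1 and 10.1 CPM with exoCDN2, 6.91 and 9.67 CPM with CDN2 (20 µg) and 7 and 9.02 CPM with CDN2 (100 µg). No tumor given exoCDN2 or CDN2 overlapped those given PBS or EVs. It rose by 2.57 ± 0.51 on the log2 scale with exoCDN2 (adjusted p = 0.016), by 2.21 ± 0.51 with CDN2 (20 µg) (adjusted p = 0.03) and by 2.16 ± 0.51 with CDN2 (100 µg) (adjusted p = 0.042). None of the rises at 1 dose held with each tumor left out in turn. The call was lost in 4 of 4 such fits with exoCDN2 (adjusted p = 0.058 to 0.19) and with CDN2 (100 µg) (adjusted p = 0.12 to 0.3), and in 3 of 4 with CDN2 (20 µg). After 2 doses it stood at 8.66 and 4.13 CPM with exoCDN2 and at 41.2 and 11.9 CPM with CDN2 (20 µg), against 0.714 and 0.460 CPM with PBS. It rose by 3.43 ± 0.56 (a 10.8-fold rise, adjusted p = 0.0014) and by 5.49 ± 0.59 (a 44.8-fold rise, adjusted p = 5.3e-05), and by 2.42 and 4.48 with the PBS tumors of both dose numbers pooled. The PBS tumors of 2 doses were themselves lower in Il15ra than those of 1 dose, by a log2 difference of -1.60 ± 0.55 that did not pass (unadjusted p = 0.014, adjusted p = 0.28). Between 1 and 2 doses of CDN2 (20 µg) it rose by 1.68 ± 0.48 (adjusted p = 0.019), and 3.28 ± 0.73 relative to PBS (adjusted p = 0.011). The direct rise did not pass without the first or the second CDN2 (20 µg) tumor of 1 dose (1.4, adjusted p = 0.14, and 1.9, adjusted p = 0.052), or without the first of 2 doses (0.51, adjusted p = 0.34).

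Per kilobase of exon, Il15ra was 0.611 to 0.818 times as abundant as Il15 in the 6 tumors given 1 dose of exoCDN2 or CDN2, and 0.569 and 0.590 times in PBS tumors of 1 dose. After 2 doses this ratio was 0.613 to 0.968 with exoCDN2 or CDN2 (20 µg) and 0.231 and 0.167 with PBS. The ratio depends on the length used, here all annotated exons of a gene (4446 bases for Il15ra and 2261 for Il15). By CPM, Il15ra was higher than Il15 in each of the 6 treated tumors of 1 dose. The Pearson correlation of Il15 with Il15ra over the 18 tumors was 0.947. The Il15ra promoter around the second of 2 RefSeq starts is shown because this chain was called higher in all 5 comparisons of exoCDN2 or CDN2 of known amount with PBS in the fit of all tumors (chr2:11705462-11705761, GRCm38.p6, plus strand). The capitals mark an IRF element (AANNGAAA, searched on both strands) from base 27 to base 34 after the start, a motif found in 23.9% of RefSeq promoters of this length:
Il15ra promoter, second start: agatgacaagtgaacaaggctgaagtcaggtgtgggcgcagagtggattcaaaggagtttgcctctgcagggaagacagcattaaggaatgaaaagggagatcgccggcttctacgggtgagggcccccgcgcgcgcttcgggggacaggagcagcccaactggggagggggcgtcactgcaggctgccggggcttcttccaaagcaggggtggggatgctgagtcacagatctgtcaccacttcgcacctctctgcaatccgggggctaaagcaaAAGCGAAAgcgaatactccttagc
The promoter of the first start held the same element on the minus strand, from base -187 to base -180. Neither held the NF-κB motif or the GAS motif.

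**Figure D3:**
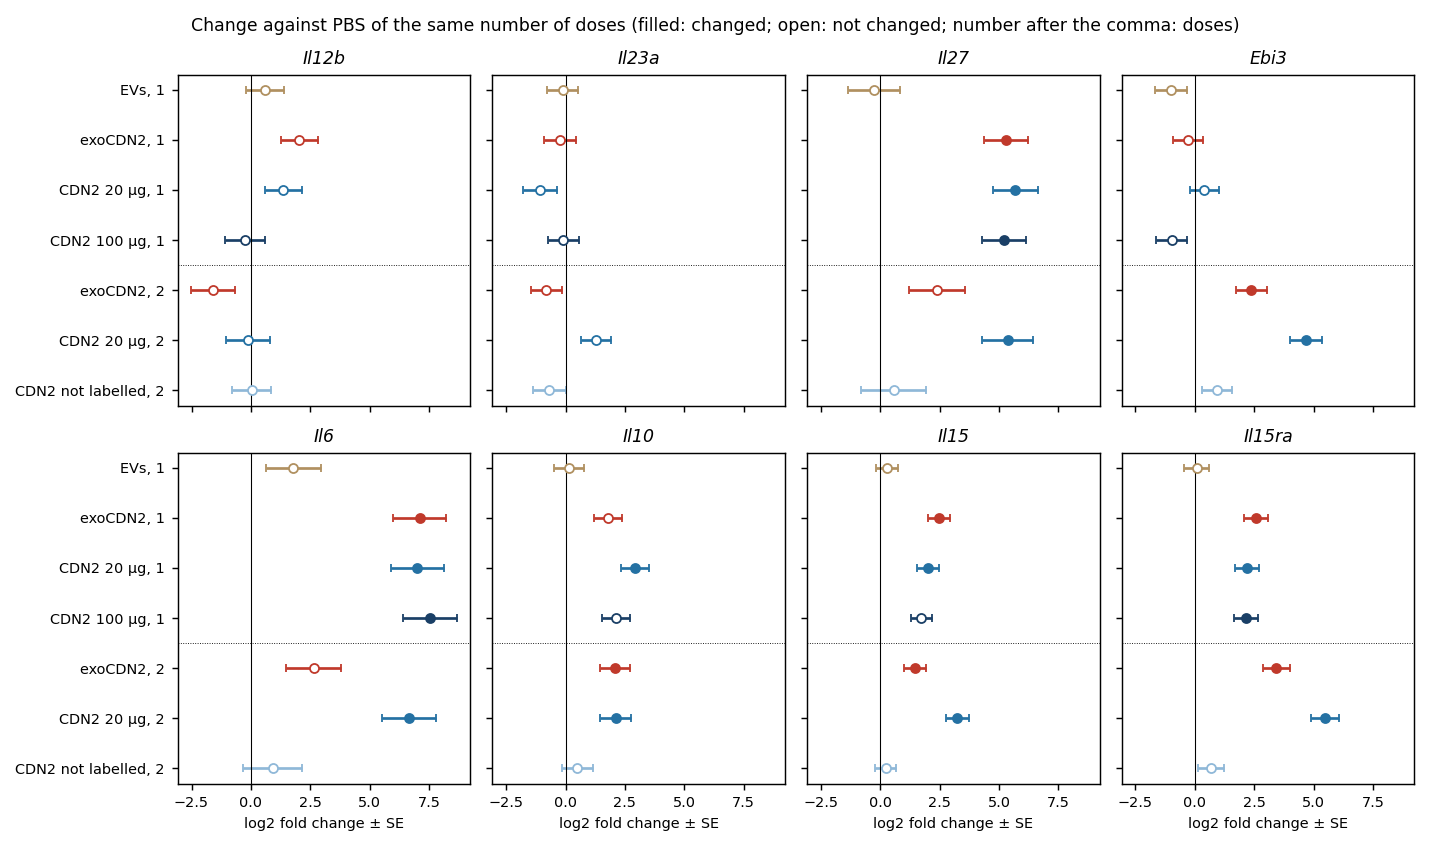
Log2 fold change of the 8 members tested against PBS of the same number of doses. Points are edgeR estimates, bars are ± 1 SE, and filled points were called changed. Il6 and Il27 lie near or above 5 after 1 dose of exoCDN2 or CDN2, and Ebi3 lies near 0 or below at 1 dose and above 2 after 2 doses of exoCDN2 or CDN2 (20 µg).

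Set beside one another per kilobase of exon, the members differed widely in their highest level. It was 25.2 CPM per kb for Il6, 17.1 for Il27, 13.8 for Ebi3, 9.57 for Il15 and 9.26 for Il15ra. Il10 reached 2.94 CPM per kb, Il12a 1.12, Il12b 0.900 and Il23a 0.449. The values of Ebi3, Il15, Il15ra, Il12a and Il23a came from the first tumor given 2 doses of CDN2 (20 µg). Without it their highest levels were 3.63, 4.08, 2.67, 0.0581 and 0.177 CPM per kb, and Il15ra was then below Il10. By the median over the 18 tumors the order was different, with Il15 (1.81 CPM per kb) and Il15ra (1.24) ahead of Il6 (0.773), Ebi3 (0.648), Il10 (0.480), Il27 (0.349), Il12b (0.193) and Il23a (0.0920).

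The 2 tumors given 2 doses of CDN2 of no labelled amount held 1.46 and 2.05 CPM of Il15, 1.09 and 0.772 CPM of Il15ra and 0.749 and 0.746 CPM of Ebi3. The log2 differences of the 8 members from PBS ranged from -0.68 (Il23a) to 0.93 (Ebi3), and the smallest adjusted p among them was 0.65 (edgeR).

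Next, exoCDN2 was compared with free CDN2, at amounts that were not matched. At 1 dose, 0 of 8 members differed between exoCDN2 (0.1 µg) and CDN2 (20 µg) (0 at an unadjusted p under 0.05, and 0 with DESeq2), beside 0.608% of all genes called. The log2 difference (exoCDN2 minus CDN2) was 0.09 for Il6, with a 95% interval of -1.62 to 1.81, and -0.38 for Il27 (-1.93 to 1.17). It was 0.47 for Il15 (-0.46 to 1.39), 0.36 for Il15ra (-0.68 to 1.39), -1.13 for Il10 (-2.31 to 0.05) and 0.67 for Il12b (-0.96 to 2.31). It was 0.83 for Il23a (-0.78 to 2.44) and -0.70 for Ebi3 (-2.07 to 0.67). These intervals allow differences of over 2-fold for each of these genes, so equal responses were not shown. CDN2 (100 µg) and CDN2 (20 µg) likewise differed in 0 of 8 members (0 at an unadjusted p under 0.05, and 0 with DESeq2), beside 0.455% of all genes, with log2 differences from -1.61 (Il12b) to 0.96 (Il23a). Against unloaded EVs, exoCDN2 raised 4 of 8 members (Il6, Il27, Il15 and Il15ra), beside 2.95% of all genes, with 2.18 ± 0.45 for Il15 (log2, adjusted p = 0.018) and 2.5 ± 0.51 for Il15ra (adjusted p = 0.018). None of the 4 was called without the second EV tumor.

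At 2 doses, exoCDN2 was lower than CDN2 (20 µg) in 6 of 8 members (Il6, Il23a, Il27, Ebi3, Il15 and Il15ra), beside 19.4% of all genes called. The log2 difference was -4.00 ± 0.93 for Il6 (adjusted p = 0.008), -2.97 ± 0.85 for Il27 (adjusted p = 0.02), -2.30 ± 0.60 for Ebi3 (adjusted p = 0.013) and -2.10 ± 0.65 for Il23a (adjusted p = 0.026). It was -2.05 ± 0.49 for Il15ra (adjusted p = 0.009) and -1.79 ± 0.44 for Il15 (adjusted p = 0.0099). Il10 differed by -0.04, with a 95% interval of -1.29 to 1.22. All of these calls rested on the first CDN2 (20 µg) tumor, without which 0 of the members were called and the differences were -1.99 for Il6 (adjusted p = 0.091), -1.58 for Il27 (adjusted p = 0.22), -1.05 for Ebi3 (adjusted p = 0.18), -0.73 for Il15 (adjusted p = 0.12) and -0.90 for Il15ra (adjusted p = 0.11). None was called either without the second exoCDN2 tumor, or when only these 2 groups entered the fit. In the comparison of CDN2 (20 µg) with PBS, 5 members were called without the first CDN2 tumor, with smaller log2 fold changes than with it (Il6 4.62, Il15ra 4.32, Il27 3.95, Ebi3 3.41 and Il15 2.17).

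Between 1 and 2 doses, 0 of 8 members changed with PBS (1, Il15ra, at an unadjusted p under 0.05, and 0 with DESeq2), beside 1.10% of all genes called. With exoCDN2, 3 members fell (Il6, Il12b and Il27), beside 7.44% of all genes. None of them was called without the first exoCDN2 tumor of 1 dose. With CDN2 (20 µg), 3 members rose (Il23a, Ebi3 and Il15ra), beside 20.8% of all genes. Ebi3 was called with each of the 4 tumors left out in turn, although its change fell to 1.81 without the first CDN2 tumor of 2 doses. Il15ra was no longer called in 3 of these 4 fits and Il23a in 2 of 4, and 0 members were called when only these 2 groups entered the fit. Relative to PBS, 0 members passed with exoCDN2 (3 at an unadjusted p under 0.05, and 3 with DESeq2: Il6, Il12b and Ebi3), beside 6.82% of all genes, and 2 rose with CDN2 (20 µg) (Ebi3 and Il15ra), beside 16.8%.

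The receptors of these cytokines were measured in the same tumors. Of 10 receptor chains listed, 9 were tested, and Il23r was at the floor in 17 of 18 tumors. After 1 dose, 0 of the 9 were called against PBS with exoCDN2 (5 at an unadjusted p under 0.05), beside 2.62% of all genes called, and 0 with CDN2 (20 µg) (3 at an unadjusted p under 0.05), beside 3.14%. Against unloaded EVs, 2 of 9 were higher with exoCDN2, beside 2.95% of all genes: Il12rb2 by 3.37 ± 0.66 (log2, adjusted p = 0.014) and Il10ra by 1.53 ± 0.37 (adjusted p = 0.041). With CDN2 (100 µg) 1 of 9 was lower than PBS, beside 2.44%: Il2rb, the chain shared by the IL-2 and IL-15 receptors, by a log2 difference of -2.58 ± 0.54 (adjusted p = 0.025). In the same comparison 3 of 6 T cell markers were called lower, and the 6 summed to 1.24 and 1.48 CPM against 7.35 and 9.43 CPM with PBS. Their part in the Il2rb difference was not tested. After 2 doses, 7 of 9 rose with exoCDN2, beside 11.3% of all genes called, and 7 of 9 with CDN2 (20 µg), beside 30.6%. With exoCDN2 the IL-12 receptor chains Il12rb1 and Il12rb2 rose by 5.35 ± 0.75 (adjusted p = 0.00056) and 4.11 ± 0.65 (adjusted p = 0.0013) on the log2 scale, and Il2rb rose by 4.69 ± 0.56 (adjusted p = 2e-04). With CDN2 (20 µg) these were 3.61 ± 0.70 (adjusted p = 0.0015), 2.81 ± 0.67 (adjusted p = 0.0048) and 3.77 ± 0.54 (adjusted p = 0.00026). Il2rg, Il10ra, Il27ra and Il6ra rose with both agents, by 2.00 to 2.82 with exoCDN2 and by 1.49 to 3.14 with CDN2 (20 µg), and Il6st and Il10rb, which are widely expressed partner chains, did not pass with either. Between exoCDN2 and CDN2 (20 µg) at 2 doses 1 of 9 differed, beside 19.4% of all genes called: Il12rb1, higher with exoCDN2 by 1.74 ± 0.63 (adjusted p = 0.047). The median log2 fold change of the 9 was 2.80 with exoCDN2 and 2.54 with CDN2 (20 µg) at 2 doses, against 0.01 and 0 over all genes. Between 1 and 2 doses the median of the 9 was -0.96 with PBS, with 0 called, beside 1.10% of all genes. It was 1.51 with exoCDN2 (4 of 9 higher, beside 7.44%) and 0.25 with CDN2 (20 µg) (4 of 9 higher, beside 20.8%). With CDN2 of no labelled amount 1 of 9 was higher than PBS, beside 0.959%, and the median was 1.01.

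Of 11 genes for JAK kinases, STAT factors and the feedback inhibitors they induce, 4 rose after 1 dose of exoCDN2 (beside 2.62% of all genes called), 3 after CDN2 (20 µg) (3.14%) and 1 after CDN2 (100 µg) (2.44%). Socs1, an inhibitor of JAK signalling, rose by 2.97 ± 0.44 on the log2 scale with exoCDN2 (adjusted p = 0.0027) and by 3.20 ± 0.45 with CDN2 (20 µg) (adjusted p = 0.0017). Socs3, the inhibitor induced by gp130 cytokines, rose by 2.02 ± 0.42 (adjusted p = 0.021) and 1.94 ± 0.42 (adjusted p = 0.022), and Cish by 2.17 ± 0.46 (adjusted p = 0.023) and 2.5 ± 0.47 (adjusted p = 0.01). After 2 doses, 6 of 11 rose with exoCDN2, beside 11.3% of all genes, and 6 of 11 with CDN2 (20 µg), beside 30.6%. At 2 doses 3 of 11 differed between exoCDN2 and CDN2 (20 µg), beside 19.4% of all genes. ExoCDN2 was higher in Stat4 (1.73 ± 0.47, adjusted p = 0.015) and lower in Socs3 (-1.29 ± 0.41, adjusted p = 0.03) and Cish (-1.44 ± 0.45, adjusted p = 0.027).

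Of the 6 other IL-6 family cytokines, Lif alone rose after 1 dose, by 3.55 ± 0.61 with exoCDN2 (adjusted p = 0.0065), 3.69 ± 0.61 with CDN2 (20 µg) (adjusted p = 0.005) and 3.15 ± 0.60 with CDN2 (100 µg) (log2, adjusted p = 0.015), beside 2.62%, 3.14% and 2.44% of all genes called. After 2 doses of CDN2 (20 µg), 4 of 6 rose, beside 30.6% of all genes, with Osm at 8.03 ± 0.99 (adjusted p = 0.00011) and Il11 at 6.08 ± 1.03 (adjusted p = 0.00064), and 1 of 6 rose with exoCDN2, beside 11.3% (Osm, 3.94 ± 0.89, adjusted p = 0.0098). At 2 doses 3 of 6 (Il11, Osm and Lif) were lower with exoCDN2 than with CDN2 (20 µg), beside 19.4%, by log2 differences of -4.17 ± 0.90 (adjusted p = 0.0059), -4.09 ± 0.78 (adjusted p = 0.0036) and -2.07 ± 0.56 (adjusted p = 0.016). The 4 other IL-10 family cytokines were at the floor in 14 to 18 tumors and were not tested. Of 5 other cytokines that signal through the common gamma chain, Il7 alone was tested. Il7 had 1 to 106 counts per tumor and was at the floor in 2 tumors, which limits its fold changes. It rose by 5.48 ± 0.69 after 2 doses of exoCDN2 (adjusted p = 0.00027), beside 11.3% of all genes. After 2 doses of CDN2 (20 µg) it rose by 4.61 ± 0.71 (adjusted p = 0.00038), beside 30.6%. Between 1 and 2 doses the log2 change of Il7 was -3.34 with PBS, 0.79 with exoCDN2 and -0.55 with CDN2 (20 µg), none of them called. Relative to PBS it was 4.12 and 2.79, both called. At 1 dose Il7 was called higher with exoCDN2 than with unloaded EVs (2.64), beside 2.95% of all genes.

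**Figure D4:**
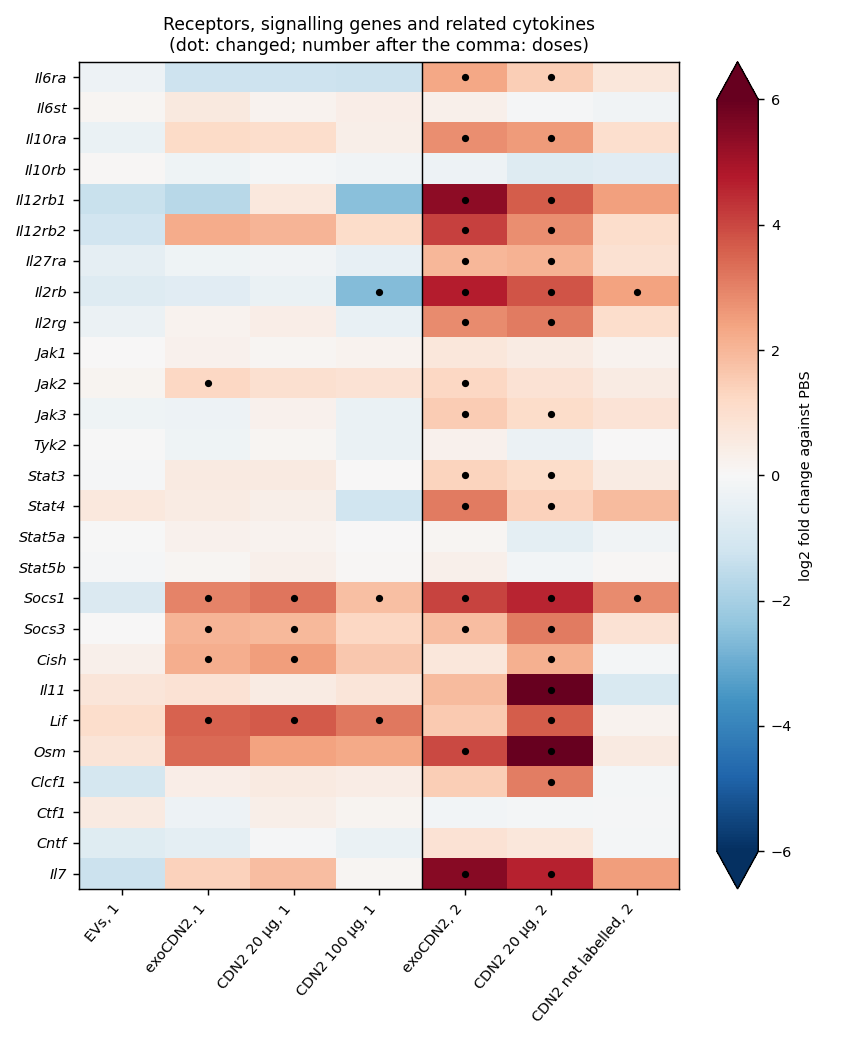
Log2 fold change against PBS of the same number of doses for the receptor chains, JAK, STAT and feedback genes, other IL-6 family cytokines and Il7. Colour is the edgeR estimate, cut at ± 6, dots mark genes called changed, and the black line separates 1 dose from 2 doses. After 2 doses of exoCDN2 or CDN2 (20 µg) 7 of 9 receptor chains are marked, and after 1 dose of either none.

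Markers of immune cells moved with some of these changes. Markers of monocytes and macrophages (8 of 8 above the floor in every tumor) summed to 570 and 355 CPM after 2 doses of exoCDN2 and to 991 and 385 CPM after 2 doses of CDN2 (20 µg), against 72.8 to 191 CPM in the other 14 tumors. The 6 tumors given 1 dose of exoCDN2 or CDN2 were within that lower range, at 98 to 184 CPM. Against PBS of 2 doses, 6 of these 8 markers were called higher with exoCDN2, beside 11.3% of all genes. With CDN2 (20 µg) 6 were called higher and 1 lower, beside 30.6%. Dendritic cell markers (8 genes, 5 to 8 above the floor) summed to 24.6 and 25.3 CPM after 1 dose of exoCDN2 and to 9.55 to 24.2 CPM in the other 16 tumors. After 1 dose of exoCDN2, 1 of these 8 was called higher than PBS, beside 2.62% of all genes. The median log2 fold change of the 8 was -0.3. Neutrophil markers (6 genes, 2 to 6 above the floor, with Ly6g at the floor in 13 tumors) summed to 870 and 198 CPM after 2 doses of CDN2 (20 µg), to 60.2 and 17.8 CPM after 2 doses of exoCDN2 and to 13.5 to 63.9 CPM after 1 dose of exoCDN2 or CDN2, against 1.55 to 11.4 CPM in the other tumors. NK cell markers (5 genes, 4 or 5 above the floor) summed to 101 and 56.6 CPM after 2 doses of exoCDN2 and to 35.1 and 77.2 CPM after 2 doses of CDN2 (20 µg), against 1.55 to 10.8 CPM elsewhere. T cell markers (6 genes, 3 to 6 above the floor) summed to 34.5 and 26.4 CPM after 2 doses of exoCDN2 and to 7.68 and 7.90 CPM after 2 doses of CDN2 (20 µg), against 1.82 and 0.854 CPM with PBS at 2 doses, and 5 of 6 were called higher than PBS with exoCDN2 (beside 11.3% of all genes) and 5 of 6 with CDN2 (20 µg) (beside 30.6%). PBS tumors of 1 dose held 7.35 and 9.43 CPM of them and tumors given CDN2 of no labelled amount 7.67 and 9.69 CPM, so the PBS tumors of 2 doses were low among these groups. The part of these cells in the changes of the cytokines and their receptors was not tested.

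By the correlation of log2 CPM over the 18 tumors, the 3 genes most like Il6 were H2-K2 (r = 0.98), Ifnb1 (0.977) and Has1 (0.977). Those most like Il27 were Ifnb1 (0.98), Sdc4 (0.976) and Il6 (0.971), and those most like Il10 were Lhx2 (0.932), Tnfaip3 (0.931) and Plekhf1 (0.931). Ebi3 was most like Cyp4f18 (0.97), Pdlim4 (0.967) and Cxcl16 (0.966), Il15 like Gm49342 (0.973), Hdc (0.972) and Gem (0.971), and Il15ra like Hopx (0.984), Ifi203-ps (0.974) and Trim30c (0.971). The scarcer Il12b was most like Cd83 (0.884), Gm9826 (0.801) and Ccr7 (0.772), and Il23a like Gm6204 (0.898), Tcim (0.89) and Itgbl1 (0.875). These are descriptions over 18 tumors that fall into 9 groups.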

How the data were processed

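RNA from 18 B16F10 tumors (9 groups of 2) was sequenced. The authors aligned the reads to the mouse genome GRCm38, assigned them to genes with RSEM and deposited the resulting expected counts, not normalized. In each tumor 8.75% to 12.7% of the values had decimals, and all were rounded here. Symbols, positions and exon lengths came from GENCODE (GRCm38), which named 50376 of 50600 genes. The count of a gene that shares reads with another is uncertain.

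Counts were scaled by TMM and tested with edgeR 4.0.16 in R 4.3.3. Genes passed filterByExpr with a minimum count of 10 and a minimum total of 15, and a single quasi-likelihood fit, with a mean for each group, used the 16 tumors of the 8 groups with a known amount. The model with all 18 tumors gave the comparison of CDN2 of no labelled amount. Changed genes had an adjusted p under 0.05 (Benjamini-Hochberg over all genes tested) and a ratio over 2, as in the study's methods. Intervals are 95% intervals from the same fit. Correlations used log2 CPM with a prior count of 2. Motifs were searched in RefSeq promoters (GRCm38.p6). The test was run on simulated counts before use.

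The alternatives were DESeq2 1.42.0, RLE factors, no filter on low counts, only the groups compared, all 18 tumors, PBS of both dose numbers pooled, each tumor left out in turn, the adjusted p alone as the limit and the replicate number as a block. One gene of the signalling list is not reported here. The members and gene lists were chosen with earlier results of these data known. The rule for naming genes took all 9 members, of which Il12a did not pass the filter, and from each list at most 3 changed genes each way with the smallest p-values, beside genes that were named after their values were seen (the IL-12 receptor chains, and genes given as a group). The labels do not say whether tumors of a group came from separate mice. The lists for B cells, fibroblasts, endothelial cells and keratinocytes were computed and are given with the other observations, and that for T cells is given in the Results.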

Additional observations from a re-analysis of the deposited data

Results flagged for a closer look

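The change between 1 and 2 doses of CDN2 (20 µg) differed from that of PBS, by a test of the difference itself, for 2 members. For Ebi3 the log2 difference between the changes was 4.28 ± 0.90 (edgeR, adjusted p = 0.0087), with both CDN2 tumors of 2 doses above both of 1 dose and both PBS tumors of 2 doses below both of 1 dose. For Il15ra it was 3.28 ± 0.73 (edgeR, adjusted p = 0.011), with the same order of tumors. Ebi3 was called with each of the 8 tumors left out in turn, and Il15ra in 7 of 8, the exception being the fit without the first CDN2 (20 µg) tumor of 1 dose (2.99, adjusted p = 0.052). With single tumors left out, the log2 difference ran from 3.00 to 5.02 for Ebi3 and from 2.10 to 3.85 for Il15ra. Groups of 2 tumors allow no test for an outlying tumor.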

How the results depend on the processing

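No call of a member changed direction under the alternatives tried. The alternatives are given for members only. How far the calls of the receptor, signalling and other cytokine lists rest on single tumors is therefore not shown. Counts of members called that moved by less than 1.5 times are given only in part. With DESeq2 the number was 5 for CDN2 (100 µg) against PBS, 5 and 7 for exoCDN2 and CDN2 (20 µg) at 2 doses, 7 for exoCDN2 against CDN2 (20 µg) at 2 doses, 5 for the second against the first dose of CDN2 (20 µg), of which Il27 fell, and 3 for exoCDN2 over doses relative to PBS. Without a filter on low counts it was 1 (Il6) for unloaded EVs, 6 for exoCDN2 against PBS at 1 dose (Il10 and Il12b added) and at 2 doses (Il6 and Il27 added), 5 for exoCDN2 against unloaded EVs, 7 for CDN2 (20 µg) at 2 doses and 7 for exoCDN2 against it, 5 for CDN2 (100 µg) against PBS, 1 (Ebi3) for CDN2 (100 µg) against CDN2 (20 µg), 1 (Il15ra) for PBS over doses, 5 for exoCDN2 over doses, 8 for CDN2 (20 µg) over doses and 4 for exoCDN2 over doses relative to PBS. With only the groups compared it was 5 for CDN2 (100 µg), 0 for exoCDN2 against CDN2 (20 µg) at 2 doses, 5 for exoCDN2 over doses, 0 for CDN2 (20 µg) over doses, and relative to PBS 3 for exoCDN2 and 1 for CDN2 (20 µg). With the PBS tumors pooled it was 5 for CDN2 (100 µg), 5 for exoCDN2 at 1 dose (Il10 added, 2.1, adjusted p = 0.022), 7 for CDN2 (20 µg) at 2 doses (Il23a added) and 3 for exoCDN2 at 2 doses, where Ebi3 was no longer called (1.65, adjusted p = 0.06). Leaving out single tumors gave 0 to 3 members for exoCDN2 against PBS at 1 dose, 0 to 5 for CDN2 (20 µg), 0 to 2 for CDN2 (100 µg), 0 to 2 for exoCDN2 against EVs, 1 to 3 for exoCDN2 at 2 doses, 5 to 8 for CDN2 (20 µg) at 2 doses, 0 to 7 for exoCDN2 against CDN2 (20 µg) at 2 doses, 0 to 2 for exoCDN2 over doses, 2 to 5 for CDN2 (20 µg) over doses and 1 to 4 for the latter relative to PBS. Where 1 tumor was left in a group, it was assumed to vary like the other groups. The direction turned for Il10 in exoCDN2 against CDN2 (20 µg) at 2 doses with no filter (0.03) and without single tumors (-0.48 to 0.42), and at 1 dose for Il6 with the block (-0.10) and without single tumors (-0.46 to 1.03), for Il27 (-1.06 to 1) and for Ebi3 (-1.19 to 0.07). It also turned for Il27 with exoCDN2 over doses relative to PBS (-3.91 to 1.66) and for Il6 with CDN2 (20 µg) over doses (-2.80 to 0.14). With the PBS tumors pooled it turned for Il27 with unloaded EVs (0.33), Ebi3 with 1 dose of exoCDN2 (0.18), and Il12b (-0.15), Il27 (-0.5) and Il15ra (-0.34) with CDN2 of no labelled amount. None of these had passed the limits in the edgeR fits used for the Results, and the cause was not tested. Of the 57 member results never called in a fit of all tumors, 39 of 268 values with a tumor left out turned sign. The replicate number as a block changed 1 call (Il10, 2 doses of exoCDN2, 2.06, adjusted p = 0.051). Same-numbered tumors of 2 groups did not deviate together (mean correlation 0.014 over 36 pairs of groups, -0.18 to 0.32), so they share only a number. Counts of 2 to 18 limit Il23a, and Il12a did not pass the filter in the fit of all tumors. With DESeq2, with no filter or without the second CDN2 (20 µg) tumor of 2 doses it was tested, and it is among those called for CDN2 (20 µg) at 2 doses, where 34 counts in 1 tumor carry it.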

Other observations

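Fibroblast markers summed to 1820 and 855 CPM after 2 doses of CDN2 (20 µg) and to 980 and 435 CPM after 2 doses of exoCDN2, against 352 CPM in both PBS tumors of 2 doses. Endothelial markers summed to 43.7 and 46.9 CPM after 1 dose of CDN2 (20 µg) and to 104 and 108 CPM with PBS. B cell markers summed to 0.902 to 2.29 CPM, and keratinocyte markers to 0.0438 to 115 CPM, with a wide spread within some groups. Keratinocyte markers summed to 115 and 62.7 CPM in PBS tumors of 1 dose and to 0.51 and 0.0438 CPM in those of 2 doses. All tumors given 1 dose of exoCDN2 or CDN2 held 0.184 to 5.48 CPM. No keratinocyte marker was called between these groups and PBS of 1 dose. The part of this RNA in the comparisons with PBS was not tested.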
